A study of Mus musculus with 17 samples.

Results

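Collagens are the main structural proteins of the extracellular matrix, and each gene named Col followed by a type number and a chain number encodes 1 alpha chain. The raw count table held 43629 genes, of which 44 had a symbol of that form, and these 44 collagen chains are described here across 8 sample groups. All 44 passed the filter on low counts and were tested: 11 fibrillar chains, 6 chains of type IV, 6 of type VI, 9 FACIT chains (fibril-associated collagens with interrupted triple helices), 4 transmembrane chains, 3 short-chain network collagens (Col8a1, Col8a2 and Col10a1), 2 multiplexins (Col15a1 and Col18a1), the anchoring fibril chain Col7a1, and Col26a1 and Col28a1. In 31 of the 44 chains every library had a count.

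ID8 is a line of mouse ovarian surface epithelial cells, and the study asked how these cells differ between the local sites they grow in. RNA was sequenced from the cultured line without treatment (1 library), from primary tumours made by injecting ID8 cells into the bursa of the right ovary (orthotopic tumours, 3 libraries), and from primary tumours under the skin (subcutaneous tumours, 2 libraries, numbered 2 and 3, given as scruff in the sample labels and as flank in the protocol). Mice with ovarian tumours gave peritoneal ascites drawn by syringe in turn, the first tap (3 libraries) and the second tap (3 libraries), and solid metastases on the intestine (3 libraries). Untreated C57BL6 ovary and intestine gave 1 library each. Every tumour and ascites library goes back to this 1 line and can hold host cells beside the ID8 cells, and the strain and age of the tumour-bearing mice were not given in the sources used here. Which samples share an animal was not given either, so the p-values measure only the spread between these samples.

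A collagen molecule is a trimer of alpha chains, and which chains a cell makes sets which structure it can build. Fibrillar chains (Col1a1 and Col1a2 of type I, Col3a1 of type III, the chains of type V that nucleate fibrils) form the tensile fibres of stroma, and FACIT chains such as Col12a1 sit on the surface of those fibres. Type IV chains build the sheet of basement membranes, type VI chains form beaded filaments around cells, and the multiplexins lie where basement membrane meets stroma. In solid carcinomas most interstitial collagen is known to come from fibroblasts and related stromal cells, whereas epithelial and mesothelial cells make much of the type IV collagen under them.

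The shallowest library held 12031221 counts and the deepest 38902048 (median 27342134). Subcutaneous tumour 3, first tap 3 and second tap 1 stood apart from the rest, with a count in 32775 to 33393 genes against 21157 to 26838 in the other 14 libraries. Counts of called chains that rest on them are given with and without them. Library names in the labels carry 3 prefixes: S (the line and 1 library of each group with 3 libraries), SM (the other libraries of these groups and both healthy tissues) and SCT (both subcutaneous tumours, so prefix and site cannot be told apart there). Levels are in CPM, the usual depth-scaled count, taken over the tested genes and corrected by edgeR's TMM (trimmed mean of M values) factor. Marker genes were read against the labels. The 4 mesothelial and ovarian surface markers (Msln, Upk3b, Lrrn4 and Wt1) summed to 1237 CPM in the line, the 5 intestinal epithelium markers to 2417 to 8196 CPM in tumours on the intestine and 7096 CPM in healthy intestine, and the 4 follicle markers to 1805 CPM in healthy ovary. In the subcutaneous tumours the 4 mesothelial markers summed to 33.2 and 558 CPM, with no marker at 0, and the 5 adipocyte markers to 3278 and 9.28 CPM. Healthy intestine, which holds no ID8 cells, had 32.4 CPM of the 4 mesothelial markers, and healthy ovary 353 CPM. The sums in subcutaneous tumour 2 and in tumour 1 on the intestine (44.3 CPM) were thus close to that of healthy intestine. Upk3b and Lrrn4 were lower in both libraries than in healthy intestine, and Msln in subcutaneous tumour 2 only. Wt1 was higher in both, at 23.0 and 17.8 CPM against 2.31 CPM, but far below the 577 CPM of the line. All 4 markers were below the line in both libraries. In subcutaneous tumour 2, Msln measured 0.434, Upk3b 3.78 and Lrrn4 5.99 CPM, against 124, 513 and 23.8 CPM in the line. No healthy skin or fat was sequenced, so healthy intestine is no matched baseline for that tumour. The ID8 content of both libraries was not tested. Both libraries are used below under their labels.

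The bases just upstream of a chain's start are shown for 6 of the 8 chains that fell in first-tap ascites, and for Col4a6, a type IV chain that did not fall there, so that their levels below can be read beside their promoters. Of the 44 chains, 35 had an entry in the RefSeq promoter table (build GRCm38.p6), with 38 start sites, and the 120 bases before the start were searched on both strands for the TATA box (TATAAA), the CCAAT box and the GC box (GGGCGG). Matches are printed in capitals, the GC box also as its reverse complement CCGCCC, and no printed match overlaps another. The windows are Col8a1 at chr16:57754738-57754857 on the minus strand, Col3a1 at chr1:45311418-45311537 on the plus strand, Col5a1 at chr2:27886305-27886424 on the plus strand, Col5a3 at chr9:20815068-20815187 on the minus strand, Col6a3 at chr1:90843972-90844091 on the minus strand, Col15a1 at chr4:47207892-47208011 on the plus strand and Col4a6 at chrX:141474077-141474196 on the minus strand, each 5′ to 3′ on the strand of its gene and with no annotated exon inside it.
Col8a1: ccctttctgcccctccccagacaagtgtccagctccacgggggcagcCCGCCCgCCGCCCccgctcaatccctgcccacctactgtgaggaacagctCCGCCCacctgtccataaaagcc
Col3a1: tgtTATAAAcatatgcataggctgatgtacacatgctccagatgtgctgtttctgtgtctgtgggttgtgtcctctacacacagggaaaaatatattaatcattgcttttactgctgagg
Col5a1: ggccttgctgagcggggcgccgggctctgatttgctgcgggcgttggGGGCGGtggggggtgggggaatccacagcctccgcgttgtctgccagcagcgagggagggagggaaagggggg
Col5a3: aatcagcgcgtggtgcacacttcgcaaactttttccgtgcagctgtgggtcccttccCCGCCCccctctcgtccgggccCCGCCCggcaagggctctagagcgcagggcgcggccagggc
Col6a3: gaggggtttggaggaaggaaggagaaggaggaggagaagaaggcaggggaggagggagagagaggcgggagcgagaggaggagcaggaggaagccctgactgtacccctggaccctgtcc
Col15a1: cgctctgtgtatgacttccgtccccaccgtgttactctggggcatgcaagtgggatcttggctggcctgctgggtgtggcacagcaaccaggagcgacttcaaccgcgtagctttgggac
Col4a6: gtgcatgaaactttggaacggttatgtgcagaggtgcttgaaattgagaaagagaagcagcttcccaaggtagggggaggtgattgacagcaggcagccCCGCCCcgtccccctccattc
Col8a1 held 3 GGGCGG matches at 73, 66 and 23 bases before its start, Col5a3 held 2, Col5a1 and Col4a6 held 1 each, Col3a1 held 1 TATAAA at 117 bases before its start, and Col6a3 and Col15a1 held none of the 3 motifs in this window. Over the 38 collagen windows, 18 held GGGCGG, 6 CCAAT and 3 TATAAA. Of the 32844 windows of the same length in the table, 26.5% held GGGCGG, 21.3% CCAAT and 6.34% TATAAA. The window of Col1a2 overlaps an annotated exon and is not shown. No entry was matched for Col1a1, Col2a1, Col4a3, Col5a2, Col9a3, Col12a1, Col14a1, Col22a1 and Col26a1.

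All 3 orthotopic tumours put more of their counts into collagen chains than any ascites library did, and the spread inside groups was wide. The 44 chains together held 0.629, 1.02 and 0.439% of the counts in the orthotopic tumours, 0.114, 0.0709 and 0.291% in the first tap, 0.192, 0.146 and 0.369% in the second tap and 0.0876, 0.180 and 0.442% in tumours on the intestine. The line held 0.240%, healthy ovary 0.652% and healthy intestine 0.0794%. Subcutaneous tumour 2 held 0.212% and subcutaneous tumour 3 1.25%, the lowest and the highest share of any solid ID8 tumour outside the intestine.

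The make-up of these collagen counts separated ascites from solid tissue. Fibrillar chains held 40.3, 42.4 and 41.2% of the collagen counts in the orthotopic tumours and 44.4% in the line, but 10.5, 19.5 and 5.93% in the first tap and 12.9, 21.0 and 8.11% in the second. Type IV chains held 18.1, 20.3 and 29.0% in the orthotopic tumours, against 60.3, 34.3 and 63.8% and 61.2, 48.1 and 67.8% in the taps and 43.0% in the line. All 6 ascites libraries lay below every solid tumour, both healthy tissues and the line for the fibrillar share, and above the 3 orthotopic tumours for the type IV share. Type VI chains held 42.5% in healthy ovary, 14.5 to 22.0% in the orthotopic tumours and 9.62% in the line. A share can move because other chains move, so the levels of single chains follow.

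**Figure D1:**
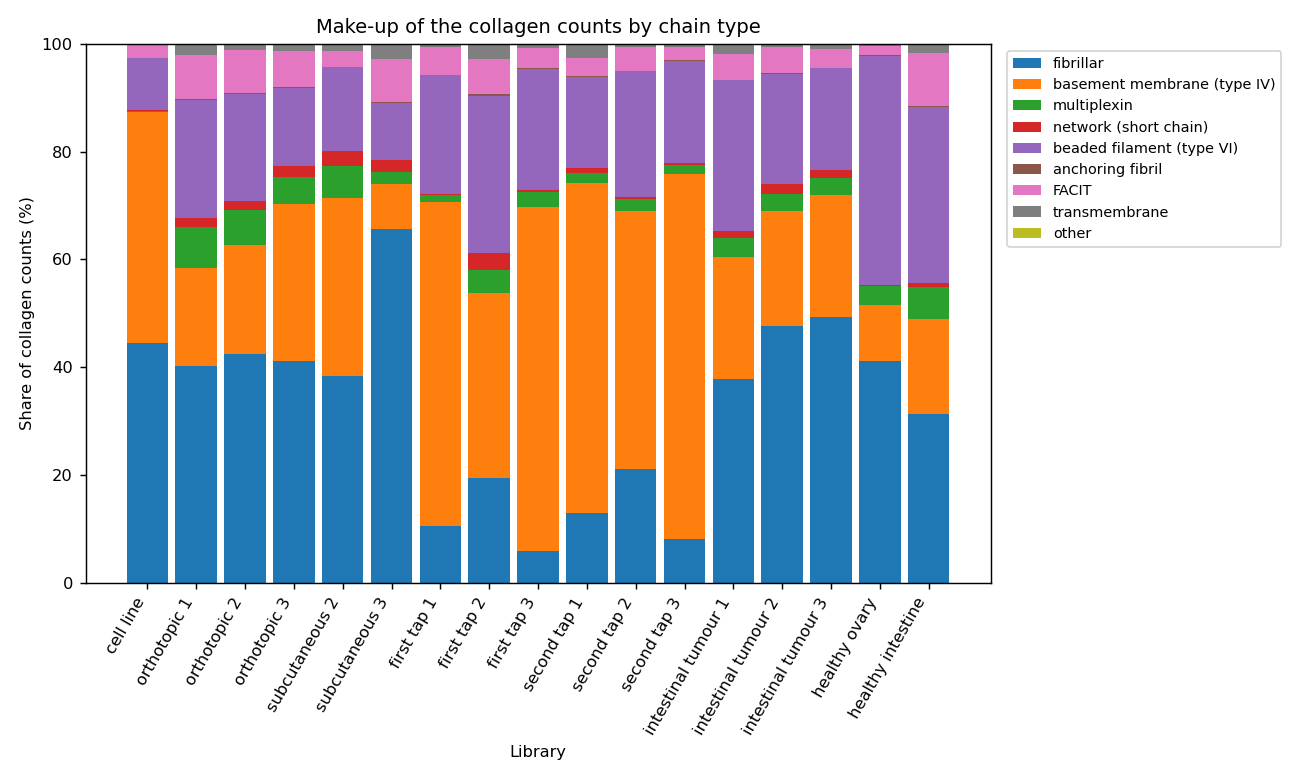
Stacked bars show the percentage of all collagen counts in each of the 17 libraries (x axis) that came from each chain type (y axis, 0 to 100%). Fibrillar chains (bottom segment) took 5.93 to 21.0% in the 6 ascites libraries and 31.3% or more in the other libraries, while type IV chains (second segment) took 34.3 to 67.8% in ascites.

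In the cultured line the collagens were dominated by a few chains. Per kilobase of exon, so that genes can be compared, Col1a1 stood at 135 CPM per kilobase, Col4a1 at 64.1, Col4a2 at 47.7, Col6a1 at 46.3, Col4a5 at 21.2 and Col4a6 at 15.1. The partner of Col1a1 in type I collagen, Col1a2, stood at 2.65 CPM per kilobase, and Col3a1 at 3.05. Col6a3, which is needed for the usual type VI molecule beside Col6a1 and Col6a2, had 0.212 CPM in the line, and 9 of the 44 chains had no count there, Col5a3, Col6a4 and Col6a5 among them. These values come from 1 library, so the line has no replicate check.

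**Figure D2:**
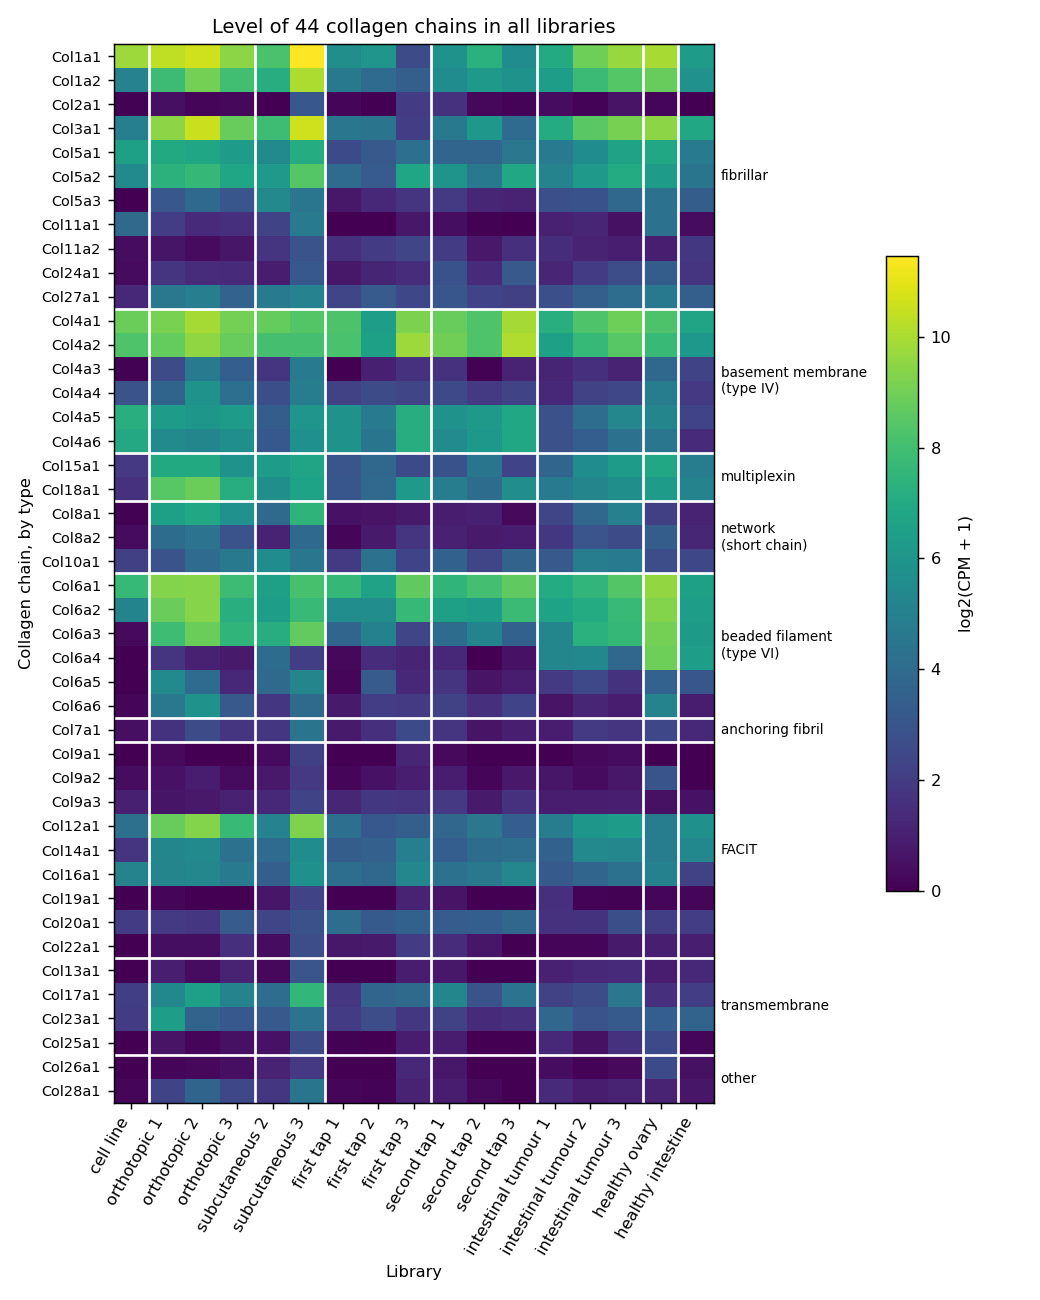
Each cell gives the level of 1 collagen chain (rows, by type) in 1 library (columns, by group) as log2(CPM + 1) on the colour scale. Col1a1, Col4a1, Col4a2 and Col6a1 are bright in the cell line column, and Col1a1, Col1a2, Col3a1 and Col12a1 darken from the orthotopic columns to the 6 ascites columns.

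Several chains that the line hardly expressed were present in all 3 orthotopic tumours. Compared with the line, 6 of the 44 chains rose in the orthotopic tumours at an adjusted p under 0.05, against 2.37% of all tested genes that rose and 0.834% that fell (edgeR's quasi-likelihood test, Benjamini-Hochberg over 22671 genes). They were Col5a3, Col27a1, Col18a1, Col8a1, Col6a3 and Col6a6. The median log2 fold change was 3.67 over the 44 chains and 0.24 over all tested genes.

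Among these chains, Col8a1, a short-chain collagen that forms hexagonal lattices, measured 0.0530 CPM in the line and 89.3, 115 and 54.2 CPM in orthotopic tumours 1 to 3, a log2 fold change of 10.56 (adjusted p = 0.0279). Col6a3 went from 0.212 CPM to 238, 466 and 181 CPM (10.41 ± 1.99, log2 fold change ± SE here and below, adjusted p = 0.0211). Col6a6, a chain that can take the place of Col6a3, measured 0.106 and 22.7, 56.4 and 8.05 CPM (8.04 ± 1.82, adjusted p = 0.0371). All 3 orthotopic tumours lay far above the line for each of these chains. Col18a1, whose C-terminal fragment is endostatin, measured 2.12 CPM in the line and 360.1, 473 and 138 CPM in the tumours (7.25 ± 1.67, adjusted p = 0.0391). Col27a1, a fibrillar chain known from cartilage, measured 1.43 and 22.9, 28.7 and 11.2 CPM (3.87 ± 0.88, adjusted p = 0.0371). Col5a3, a chain of type V, had no count in the line and 7.68, 13.9 and 7.37 CPM in the tumours, at least 122-fold higher with the line set to 3 counts (adjusted p = 0.0107). Of the exon bases of Col18a1, 33.5% lie inside the body of Slc19a1 on the other strand, so its counts are uncertain if strand was not used.

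The abundant chains of the line did not pass in this comparison. Col1a1 measured 885 CPM in the line and 1300, 1562 and 712 CPM in the orthotopic tumours (0.43 ± 1.38, adjusted p = 0.901), and Col4a1 479 and 575, 954 and 536 CPM (0.52 ± 0.94, adjusted p = 0.790). Col4a6 measured 120.3 CPM in the line and 43.0, 37.8 and 50.9 CPM in the tumours, all 3 below the line (-1.45 ± 0.95, adjusted p = 0.420). Col1a2 and Col3a1 had large differences that missed the threshold, at 3.35 ± 1.18 (adjusted p = 0.130) and 4.87 ± 1.68 (adjusted p = 0.126). Fibroblast markers moved with these chains: the 8 markers summed to 189 CPM in the line, with Lum and Thy1 at 0, and to 671 to 885 CPM in the tumours, and the 6 endothelial markers summed to 1.03 CPM (Cdh5, Kdr and Emcn at 0) and 279.8 to 501 CPM. The part of these cells in the result was not tested, and in bulk samples fewer cells of a type and less RNA per cell cannot be told apart. The count of 6 was 2 without orthotopic tumour 1, 2 without orthotopic tumour 2, 3 with scaling to the library total alone and 19 with DESeq2. Over all genes these settings called 325, 309, 460 and 3636. Within the S prefix the 6 chains were higher in orthotopic tumour 1 than in the line by 3.12 to 7.62 on the log2(CPM + 1) scale. Every orthotopic tumour lay above the line for them, so that direction was fixed.

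Subcutaneous tumours were set against the line in the same way, and 6 of the 44 chains rose, against 6.25% of all tested genes that rose and 3.23% that fell. They were Col5a3 (no count in the line, 40.7 and 21.4 CPM in subcutaneous tumours 2 and 3, at least 391-fold higher), Col27a1 (4.34), Col15a1 (5.05), Col8a1 (10.69), Col6a3 (10.34) and Col6a6 (6.28 on the log2 scale). The same 1 library of the line served for this comparison and the one before. The 2 subcutaneous tumours differed widely: Col8a1 measured 14.4 and 175 CPM and Col6a6 2.52 and 14.6 CPM, tumour 2 being the low one for both. Markers of host cells were higher with these chains, going from the line to tumours 2 and 3: the 6 endothelial markers from 1.03 to 713 and 354 CPM, the 8 fibroblast markers from 189 to 565 and 723 CPM and the 5 adipocyte markers from 0.185 to 3278 and 9.28 CPM. In the line 3, 2 and 3 markers of these lists were at 0, in the subcutaneous tumours none, and their part in the result was not tested. The 4 mesothelial markers were below the line's 1237 CPM in both, at 33.2 CPM in tumour 2. The median was 4.26 over the 44 chains and 0.60 over all tested genes. With tumour 2 left out the count was 7, with tumour 3 left out it was 5 and the median 2.14, and with it, first tap 3 and second tap 1 all left out it was 7 higher and 1 lower, the lower one being Col4a6 (120.3 CPM in the line and 7.90 CPM in tumour 2).

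In first-tap ascites several chains of interstitial matrix stood far below the orthotopic tumours. Of the 44 chains 8 fell, against 0.891% of all tested genes that fell, and 33 had a negative log2 fold change; 0.688% of all genes rose, and of the chains edgeR called 0 higher (3 at an unadjusted p under 0.05, 1 by DESeq2, Col11a2). The median was -1.62 over the 44 chains and 0.18 over all tested genes. The 8 were 4 fibrillar chains (Col1a2, Col3a1, Col5a1 and Col5a3), the network chain Col8a1, the FACIT chain Col12a1, the type VI chain Col6a3 and the multiplexin Col15a1.

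Of the fibrillar chains, Col3a1, the chain of type III fibres, measured 701, 1497 and 437 CPM in the orthotopic tumours and 21.4, 20.0 and 3.25 CPM in the first tap, a log2 fold change of -5.88 ± 1.07 (adjusted p = 0.0309). The 3 ascites libraries all lay far below the lowest tumour. Col1a2 measured 228, 528 and 253 and 24.1, 15.1 and 10.2 CPM (-4.35 ± 0.77, adjusted p = 0.0301). Col5a1, which starts and sizes fibrils, measured 123, 104 and 80.5 and 4.98, 8.16 and 17.1 CPM (-3.35 ± 0.63, adjusted p = 0.0321). Col5a3 measured 7.68, 13.9 and 7.37 and 0.657, 1.47 and 2.26 CPM (-2.73 ± 0.58, adjusted p = 0.0409). The groups did not overlap for any of these chains, which the test on the same libraries had picked. The share of all genes without overlap was not counted. Col1a1 had a difference of the same order, from 1300, 1562 and 712 CPM to 50.3, 61.8 and 5.32 CPM, but missed the threshold at -4.93 ± 1.12 (adjusted p = 0.0514), and first tap 3 was the lowest of all 17 libraries. Col5a2 overlapped between the groups, at 166, 199 and 106 and 15.1, 8.81 and 109.5 CPM (-1.82 ± 0.94, adjusted p = 0.320), first tap 3 being as high as orthotopic tumour 3.

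Outside the fibrillar type 4 chains fell. Col8a1 measured 89.3, 115 and 54.2 CPM in the orthotopic tumours and 0.493, 0.529 and 0.765 CPM in the first tap (-7.17 ± 1.09, adjusted p = 0.0195), the most negative of the 44 log2 fold changes. Col12a1 measured 446, 653 and 211 and 16.9, 7.79 and 9.91 CPM (-5.24 ± 0.94, adjusted p = 0.0309). As means, Col8a1 stood at 86.2 ± 30.5 CPM in the tumours and 0.596 ± 0.148 CPM in the first tap, and Col12a1 at 437 ± 221 and 11.5 ± 4.78 CPM (SD, n = 3 each). Both stayed well below the tumours in all 3 ascites libraries. Col6a3 measured 238, 466 and 181 and 12.3, 31.4 and 4.28 CPM (-4.20 ± 0.88, adjusted p = 0.0399), and Col15a1 122, 125 and 59.0 and 7.17, 13.6 and 4.93 CPM (-3.58 ± 0.76, adjusted p = 0.0421). Col18a1 measured 360.1, 473 and 138 and 7.26, 14.0 and 72.8 CPM and did not pass (-3.37 ± 0.82, adjusted p = 0.0639). The FACIT chains Col14a1 and Col16a1 were closer between the groups: Col14a1 measured 42.4 CPM at most in the tumours and 9.36, 10.5 and 29.5 CPM and Col16a1 35.7, 38.0 and 25.5 and 16.4, 13.1 and 39.1 CPM, with adjusted p = 0.407 and 0.661, and both overlapped between the groups.

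Some stromal markers were low in the same ascites libraries. Of the 8 fibroblast markers, Pdgfrb measured 1.81 to 2.16 CPM in the first tap and 54.7 to 81.9 CPM in the orthotopic tumours, and Lum 0 to 1.31 and 24.7 to 71.7 CPM, with Lum and Dpt at 0 in first tap 2. The summed fibroblast level overlapped, at 93.8 to 948 and 671 to 885 CPM, and Dcn alone measured 52.7 to 839 CPM in the first tap. Dcn also measured 149 CPM in the line. As a mean of log2(CPM + 1) over the 8 markers the groups did not overlap, at 2.55 to 2.87 in the first tap and 4.85 to 5.76 in the tumours. The 6 endothelial markers summed to 28.0 to 51.1 CPM in the first tap (Emcn at 0 in first tap 1) and 279.8 to 501 CPM in the tumours, and the 6 macrophage markers to 938 to 6042 and 222 to 327 CPM. Their part in the collagen result was not tested. Within the S prefix (1 library against 1) the 8 chains differed by -2.39 to -5.92 on the log2(CPM + 1) scale. Within the SM prefix (2 against 2) they differed by -2.02 to -6.26. The groups did not overlap for any of the 8, which these same libraries had picked, so the sign was fixed beforehand. With the prefix as a term 14 chains fell, and 668 of all genes were called in either direction. The count of 8 was 0 without orthotopic tumour 1, orthotopic tumour 2 or first tap 2, 2 without first tap 1 and 4 without orthotopic tumour 3. It was 1 with scaling to the library total alone, 19 with DESeq2 (18 of them lower) and 16 without the 3 libraries that stood apart. Over all genes these settings called 83, 2571 and 1352. None of the 8 changed direction under the alternatives run, which use these same libraries.

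**Figure D3:**
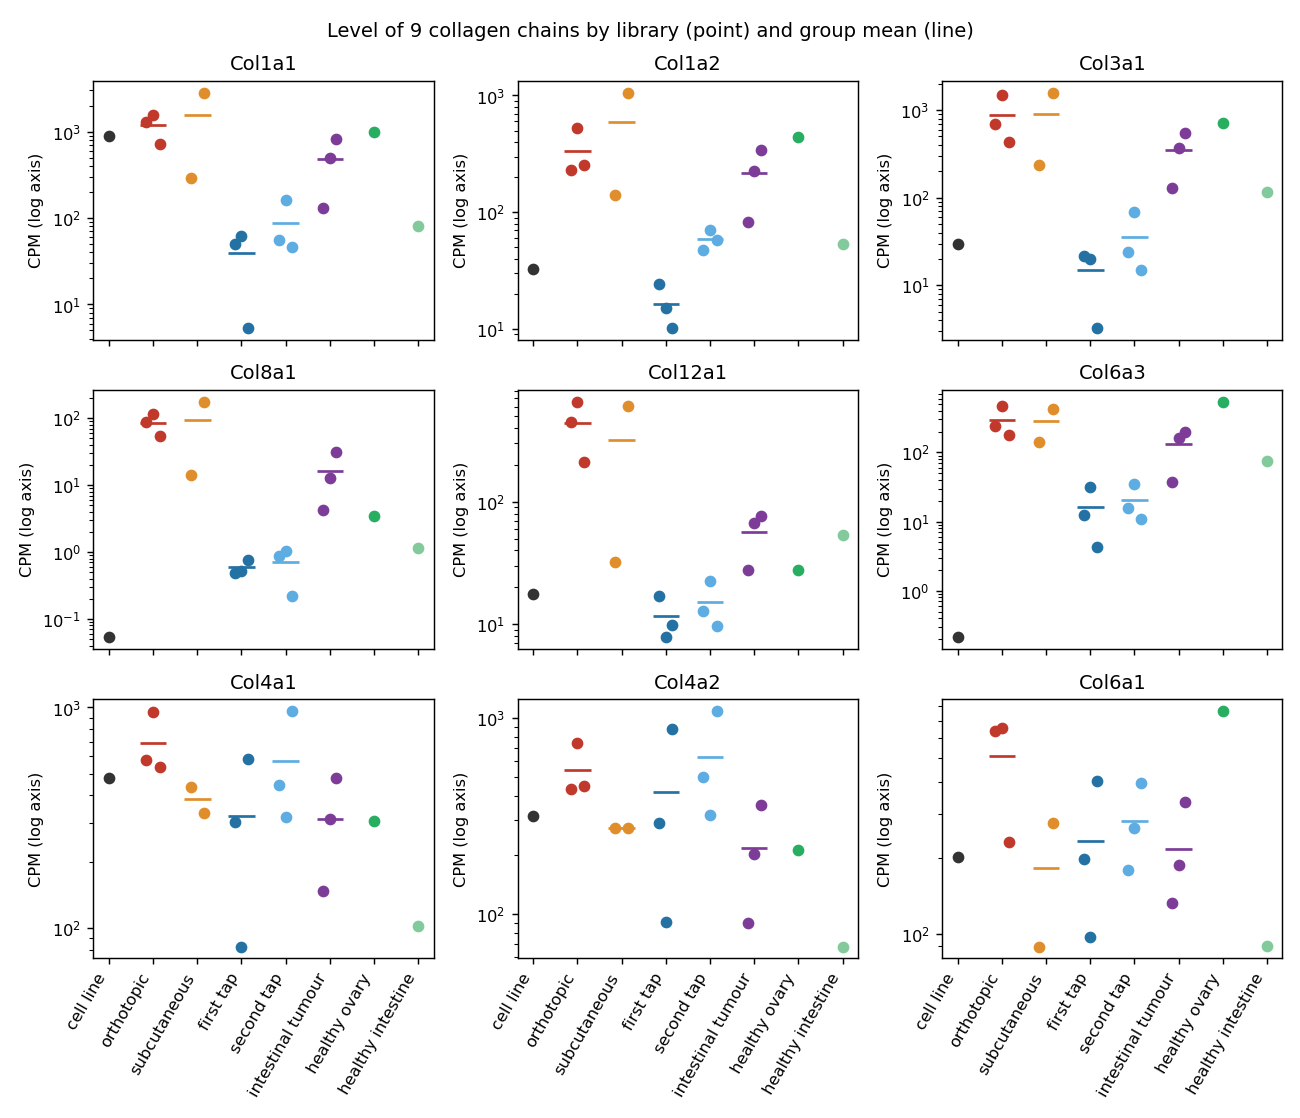
Each point is 1 library and each line a group mean, for 9 chains, with CPM on a log axis and the 8 groups on the x axis. Col1a1, Col1a2, Col3a1, Col8a1, Col12a1 and Col6a3 drop from the orthotopic tumours to both taps, while the taps overlap the orthotopic tumours for Col4a1, Col4a2 and Col6a1.

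The type IV chains were split. Col4a1 and Col4a2, which build the common basement membrane network, did not pass and overlapped between the groups. Col4a1 measured 575, 954 and 536 CPM in the orthotopic tumours and 304, 82.6 and 583 CPM in the first tap (-1.09 ± 0.65, adjusted p = 0.389), and Col4a2 433, 746 and 446 and 289, 90.4 and 875 CPM (-0.37 ± 0.72, adjusted p = 0.824). First tap 2 was the low library for both, and first tap 3 the high one. Col4a5 and Col4a6, partners in the basement membranes of smooth muscle and some epithelia, measured 57.6, 26.1 and 141 and 57.1, 21.2 and 138 CPM in the first tap, 78.8, 66.2 and 78.3 and 43.0, 37.8 and 50.9 CPM in the orthotopic tumours, and 142 and 120.3 CPM in the line. Their log2 fold changes against the orthotopic tumours were 0.01 ± 0.76 and 0.72 ± 0.72 (adjusted p = 0.998 and 0.629). Col4a3 and Col4a4, the chains of specialised basement membranes such as that of the kidney glomerulus, were lower without passing: Col4a4 measured 11.8 to 56.3 and 3.78, 5.10 and 4.28 CPM (-2.69 ± 0.70, adjusted p = 0.0734) and Col4a3 5.27, 24.9 and 9.71 and 0.0274, 0.983 and 2.14 CPM (-3.67 ± 1.35, adjusted p = 0.169). For type IV edgeR thus called 0 of 6 chains (2 lower at an unadjusted p under 0.05, 2 lower by DESeq2), with a median of -0.73 against -2.73 for the 11 fibrillar chains; the difference between the types was not tested. Antisense gene bodies cover 23.4% of the exon bases of Col4a1, 16.2% of Col4a2 and 50% of Col4a3, whose counts are uncertain if strand was not used.

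The 4 mesothelial markers, high in the line, varied beside the type IV chains over the taps. They summed to 1278, 273 and 4517 CPM in first taps 1 to 3 and 1313, 1320.0 and 2809.6 CPM in second taps 1 to 3, with no marker at 0, and the macrophage markers to 960.0, 6042 and 938 and 3219, 2993 and 1774 CPM. First tap 2 had the lowest mesothelial, Col4a1, Col4a2, Col4a5 and Col4a6 levels and the highest macrophage level of the 6 ascites libraries. The part of these cell types in the collagen levels was not tested.

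Of the 3 main type VI chains, Col6a3 alone passed the test between first tap and orthotopic tumours. Col6a1 measured 198, 97.4 and 404 CPM in the first tap and 639, 658 and 232 CPM in the orthotopic tumours (-1.13 ± 0.62, adjusted p = 0.351), and Col6a2 48.5, 50.3 and 202 and 451, 660.4 and 143 CPM (-2.06 ± 0.72, adjusted p = 0.154). Per kilobase, Col6a3 was 0.00388 to 0.118 times Col6a1 in the first tap and 0.00992 to 0.0484 times in the second. It was 0.136 to 0.286 times in the orthotopic tumours, which neither tap overlapped. Tumours on the intestine, at 0.104 to 0.314 times, did overlap the first tap. Col6a3 was picked by the test on these same libraries.

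Set against the line, the first tap had 1 of the 44 chains that rose and 1 that fell, against 3.11% and 1.11% of all tested genes. Both counts are near the background. Col5a1 fell, from 90.7 CPM in the line to 4.98, 8.16 and 17.1 CPM (-3.17 ± 0.74, adjusted p = 0.0354). Col5a3 rose from no count to 0.657, 1.47 and 2.26 CPM, at least 18.4-fold higher (adjusted p = 0.0187). Col1a1, the leading chain of the line, was low in every first-tap library (-4.50 ± 1.24) but missed the threshold (adjusted p = 0.0625), as did Col11a1, a minor fibrillar chain, at 14.7 CPM in the line and 0, 0 and 0.688 CPM in the first tap (-6.02 ± 1.69, adjusted p = 0.0666). Without first tap 1 or first tap 2 the call of Col5a1 was lost, 13 chains passed with DESeq2, and without the 3 libraries that stood apart 2 rose and 3 fell. Over all genes DESeq2 called 3636, and the fit without those libraries called 1030.

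In second-tap ascites Col8a1 and Col12a1 fell against the orthotopic tumours, and edgeR called 0 of the 11 fibrillar chains (1 higher and 7 lower at an unadjusted p under 0.05, 0 and 7 by DESeq2). Against the orthotopic tumours 2 of the 44 chains fell, against 0.578% of all tested genes that fell and 0.516% that rose, and the median was -1.33 against 0.13 for all genes. This comparison shares its 3 orthotopic libraries with that of the first tap. Col8a1 measured 0.859, 1.03 and 0.220 CPM in the second tap (-6.92 ± 1.07, adjusted p = 0.0275) and Col12a1 12.8, 22.6 and 9.59 CPM (-4.86 ± 0.93, adjusted p = 0.0424). Both were far below every orthotopic tumour. Col3a1 measured 23.9, 67.9 and 14.9 CPM, Col1a1 55.7, 160.2 and 46.5 CPM, Col1a2 47.2, 70.0 and 58.2 CPM and Col6a3 15.5, 34.7 and 10.8 CPM, with log2 fold changes of -4.63, -3.77, -2.52 and -3.86 that did not pass (adjusted p = 0.0525, 0.110, 0.108 and 0.0571). Col4a1 measured 444, 319 and 962 CPM and Col4a2 498, 319.7 and 1077 CPM, with log2 fold changes of -0.26 ± 0.64 and 0.22 ± 0.72. The count of 2 was 0 under 5 of the 6 settings that left out 1 library, the exception being orthotopic tumour 3, and 0 with the library total alone, but 19 with DESeq2, 11 with the library-name prefix as a term and 6 without the 3 libraries that stood apart. Over all genes the last 3 settings called 1930, 527 and 321. Within the S and the SM prefix Col8a1 differed by -5.48 and -5.80 and Col12a1 by -4.24 and -5.15 on the log2(CPM + 1) scale. The sign was fixed here too, because the groups did not overlap for either chain.

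Between the taps no chain passed. In edgeR 0 of the 44 chains were called, beside 0% of all tested genes higher and 0% lower; 2 chains were higher at an unadjusted p under 0.05, and DESeq2 called 0. Those chains were Col1a2, at 24.1, 15.1 and 10.2 CPM in the first tap and 47.2, 70.0 and 58.2 CPM in the second (1.83 ± 0.69), and Col24a1, a minor fibrillar chain, at 0.685, 1.28 and 1.72 and 6.51, 1.69 and 8.12 CPM (2.14 ± 0.82). The groups did not overlap for Col1a2, and adjusted p was 1. The median over the 44 chains was 0.03. A p that misses the threshold does not show that the taps have equal levels.

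**Figure D4:**
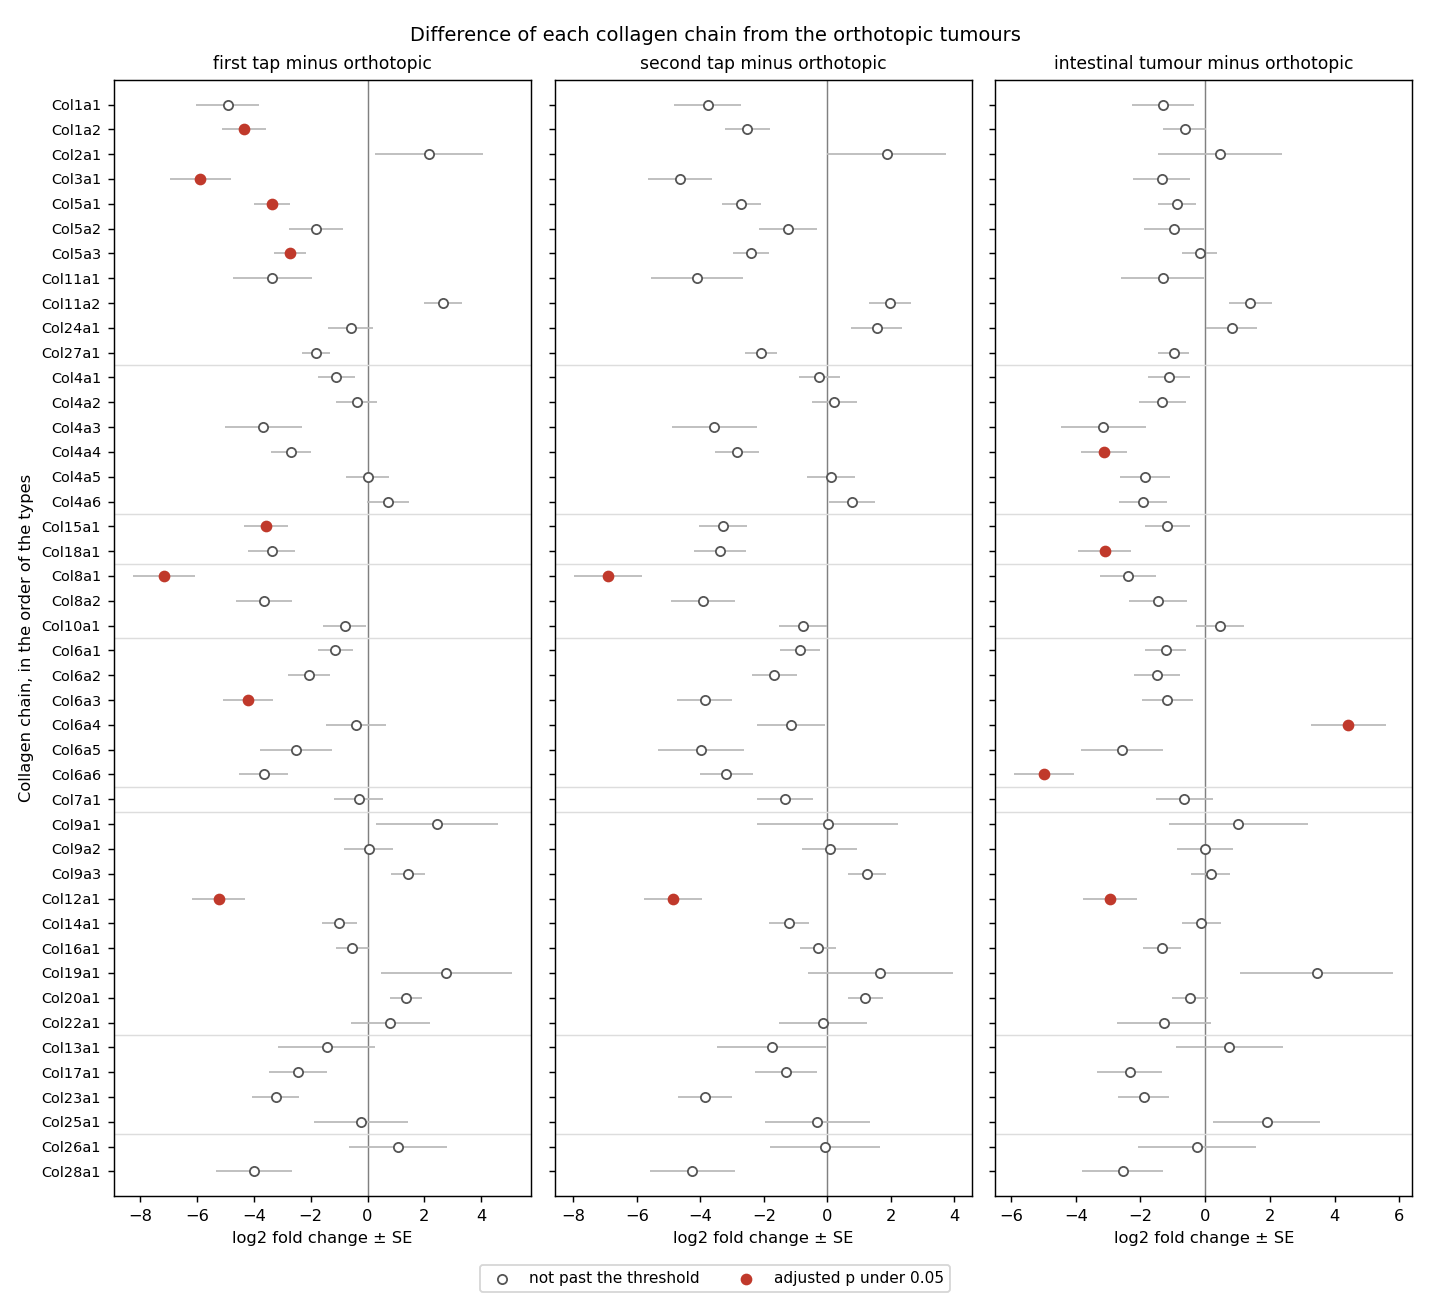
Points give the log2 fold change and bars the SE of each of the 44 chains (y axis, by type) in the first tap, the second tap and the tumours on the intestine, each against the same 3 orthotopic tumours; filled points passed at an adjusted p under 0.05. The filled points are 8, 2 and 5 chains, and only Col6a4 in the third panel lies on the positive side.

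Tumours on the intestine were compared with the orthotopic tumours as metastasis against primary tumour. Of the 44 chains 1 rose and 4 fell, against 10.4% of all tested genes that rose and 5.13% that fell. The 1 rise is below the background and the 4 falls are near it, so these counts do not set the collagen chains apart. The median was -1.17 over the chains and 0.06 over all genes. Col6a4, a type VI chain, rose: it measured 2.31, 1.06 and 0.789 CPM in the orthotopic tumours and 37.7, 39.7 and 12.8 CPM in tumours on the intestine (4.43 ± 1.15, adjusted p = 0.0246). Healthy intestine held 81.8 CPM of it and healthy ovary 482 CPM, both above every tumour library.

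The 4 chains that fell came from 4 types. Healthy intestine held 0.873 CPM of Col6a6, 2.77 of Col4a4, 33.4 of Col18a1 and 53.7 of Col12a1. Each of these values lay inside the range of the tumours on the intestine, and the part of host tissue was not tested. Col6a6 measured 22.7, 56.4 and 8.05 CPM in the orthotopic tumours and 0.525, 1.36 and 0.818 CPM in tumours on the intestine (-4.97 ± 0.92, adjusted p = 0.00521), and it passed under all 13 alternatives. Col4a4 measured 11.8 to 56.3 and 1.47, 3.73 and 4.38 CPM (-3.13 ± 0.71, adjusted p = 0.0139). Col18a1 measured 360.1, 473 and 138 and 25.5, 35.9 and 50.8 CPM (-3.11 ± 0.82, adjusted p = 0.0252), and Col12a1 446, 653 and 211 and 27.6, 66.9 and 76.0 CPM (-2.94 ± 0.85, adjusted p = 0.0361). None of these chains, picked by the test on the same libraries, overlapped between the groups. The share of all genes without overlap was not counted. The fibrillar chains did not pass: edgeR called 0 of 11, with 0 at an unadjusted p under 0.05 and 0 by DESeq2, and Col1a1 measured 129, 492 and 829.8 CPM, Col1a2 82.5, 224 and 341 CPM and Col3a1 130.3, 366 and 547 CPM, tumour 1 being the lowest for each.

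Col4a5 and Col4a6, high in the line, were low in tumours on the intestine, at 6.19, 16.1 and 38.8 and 6.09, 9.76 and 18.6 CPM. They did not pass against the orthotopic tumours (-1.86 ± 0.78 and -1.93 ± 0.75, adjusted p = 0.124 and 0.100). The mesothelial markers summed to 44.3, 264 and 433 CPM in these 3 tumours against 525 to 1614 CPM in the orthotopic ones and 32.4 CPM in healthy intestine. Tumour 1 was close to healthy intestine in this sum, though Wt1 alone measured 17.8 CPM in it and 2.31 CPM in healthy intestine. The 6 smooth muscle markers summed to 1203 to 1883 CPM on the intestine, 84.1 to 159 CPM in the orthotopic tumours and 859 CPM in healthy intestine, and the 5 intestinal epithelium markers to 2417 to 8196, 4.72 to 6.21 and 7096 CPM. No marker of these lists was at 0 on the intestine, and 1 or 2 of the 5 epithelium markers were at 0 in each orthotopic tumour. The part of host intestine in these values was not tested. The count of 5 was 1 without orthotopic tumour 2, tumour on the intestine 1 or tumour on the intestine 2, 2 without orthotopic tumour 1, 3 without the filter on low counts, 8 with DESeq2 and 9 without the 3 libraries that stood apart. DESeq2 called 5921 of the 22671 tested genes, so its 8 of 44 chains are below that share. Over all genes, 2630 were called without the filter and 4124 without the 3 libraries. Within the S and the SM prefix Col6a4 differed by 3.55 and 3.82 and Col6a6 by -3.96 and -3.99 on the log2(CPM + 1) scale. None of the 5 chains overlapped between the groups, so their direction within a prefix was fixed.

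Against healthy intestine, edgeR called 0 of the 44 chains in the tumours on the intestine (3 higher at an unadjusted p under 0.05, 0 by DESeq2), as it called 0% of all genes higher and 0% lower. The log2 fold change was positive for 34 chains, with a median of 0.93 against 0.02 for all genes. Col1a1 measured 80.3 CPM in healthy intestine and 129, 492 and 829.8 CPM in the tumours (2.59 ± 1.59, adjusted p = 1), and Col4a6 1.59 and 6.09, 9.76 and 18.6 CPM (2.85 ± 1.26, adjusted p = 1). All 3 tumours lay above the 1 healthy library for both chains. Col9a2 had no count in healthy intestine, 0.630, 0.255 and 0.676 CPM in the tumours, and 6.76 CPM in healthy ovary, its highest library.

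The orthotopic tumours were also set against the single healthy ovary. There 1 of the 44 chains fell, while 0.00882% of all tested genes rose and 0.591% fell. That chain was Col6a4, at 482 CPM in healthy ovary and 2.31, 1.06 and 0.789 CPM in the tumours (-8.43 ± 1.45, adjusted p = 0.0301). Markers of host tissue moved with it: the 6 smooth muscle markers summed to 1109 CPM in the ovary and 84.1 to 159 CPM in the tumours, and the 4 follicle markers to 1805 and 20.2 to 32.5 CPM, none of either list at 0. Their part in the result was not tested. Col12a1 and Col8a1 were higher in every orthotopic tumour than in the 1 ovary, at 27.4 against 446, 653 and 211 CPM and 3.50 against 89.3, 115 and 54.2 CPM, but did not pass (3.99 ± 1.45 and 4.62 ± 1.57, adjusted p = 0.306 and 0.270). DESeq2 called these 2 and Col17a1, the hemidesmosome collagen, higher. The median was 0.05 over the 44 chains. The call of Col6a4 was lost without any 1 of the 3 tumours, without the filter on low counts and with the library-name prefix as a term, while within the SM prefix its difference was -7.97 on the log2(CPM + 1) scale. The difference between the 2 tumour-against-tissue contrasts, intestine minus ovary, was called by edgeR for 0 chains (3 at an unadjusted p under 0.05, 0 by DESeq2) and for 0% of all genes as higher and 0% as lower.

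Subcutaneous and orthotopic tumours were compared as the 2 primary sites, and edgeR called 0 of the 44 chains (4 higher and 1 lower at an unadjusted p under 0.05, 1 higher by DESeq2) beside 0.0132% of all genes higher and 0% lower. The chain called by DESeq2 was Col11a2, a minor fibrillar chain, at 2.26 and 6.72 CPM in the subcutaneous and 0.571, 0.266 and 0.632 CPM in the orthotopic tumours (3.18 ± 0.72 and adjusted p = 0.0661 in edgeR). The 2 subcutaneous libraries spanned the orthotopic ones for 3 abundant chains: Col1a1 measured 288 and 2815 CPM, Col3a1 239 and 1576 CPM, and Col1a2 140.0 and 1054 CPM in tumours 2 and 3. Col12a1 measured 32.3 and 608 CPM. Tumour 3 was the higher one for each, and the highest of all 17 libraries for Col1a1, Col1a2 and Col3a1. Col5a3 and Col10a1 went the other way, at 40.7 and 21.4 and 46.4 and 21.4 CPM. Of Col10a1, all exon bases lie inside the gene body of Nt5dc1 on the opposite strand, so its counts are uncertain if strand was not used. Without tumour 3 the median over the 44 chains turned from 0.38 to -1.39, with 1 chain called lower, and without tumour 2 the count stayed at 0. Keratinocyte markers (5 genes) summed to 64.3 and 693 CPM in tumours 2 and 3 and to 8.10 to 21.9 CPM in the orthotopic tumours, and their part was not tested.

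Some chains stayed low or were high in single libraries. In 11 of the 44 no library reached 10 CPM: Col2a1, Col11a2, Col24a1, Col9a1, Col9a2, Col9a3, Col19a1, Col22a1, Col13a1, Col25a1 and Col26a1. Their highest values ran from 3.49 to 9.46 CPM, and they were in subcutaneous tumour 3 for 8 of the 11 and in healthy ovary for the other 3. First tap 3 and second tap 1 also held low counts of Col2a1, the cartilage chain, at 2.95 and 2.25 CPM, where the other taps had 0 to 0.172 CPM. Col17a1 measured 39.6, 87.4 and 33.5 CPM in the orthotopic tumours and 16.1 and 192 CPM in the subcutaneous ones, and its highest tap was second tap 1, at 37.8 CPM. Col23a1, another transmembrane chain, was high in 1 library, orthotopic tumour 1, at 85.1 CPM, against 11.7 and 7.82 CPM in tumours 2 and 3. Col7a1, the chain of anchoring fibrils under skin epithelium, measured 2.52 and 20.0 CPM in the subcutaneous tumours and 2.18, 5.09 and 2.26 CPM in the orthotopic ones. Of the chains not yet described, Col8a2, the partner of Col8a1, measured 15.7, 19.4 and 6.55 CPM in the orthotopic tumours and 0.164, 0.794 and 2.37 CPM in the first tap without overlap (-3.65 ± 0.99, adjusted p = 0.0844). Col6a5 measured 42.4, 15.2 and 1.53 and 0.110, 8.81 and 1.53 CPM there, the groups overlapping, and Col20a1, a FACIT chain, 2.86, 2.46 and 8.68 and 16.3, 8.62 and 10.9 CPM (1.35 ± 0.56, adjusted p = 0.213). Col28a1 measured 4.15, 11.9 and 4.53 CPM in the orthotopic tumours and 0.110, 0.0756 and 1.11 CPM in the first tap (-4.00 ± 1.33, adjusted p = 0.137).

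Partner chains of 1 molecule did not keep 1 ratio everywhere. Per kilobase, Col1a1 over Col1a2 was 51.0 in the line and 10.8, 5.60 and 5.33 in the orthotopic tumours, 3.96, 7.74 and 0.989 in the first tap and 2.23, 4.33 and 1.51 in the second. It was 2.97, 4.16 and 4.60 in tumours on the intestine, 3.89 and 5.06 in the subcutaneous tumours, 4.24 in healthy ovary and 2.83 in healthy intestine, so the line lay above all 16 other libraries. Col6a1 over Col6a2 was likewise highest in the line, at 11.1, and 7.77, 3.68 and 3.80 in the first tap against 2.69, 1.89 and 3.08 in the orthotopic tumours. Col4a1 and Col4a2, whose annotated starts overlap by 22 bases on opposite strands, kept a ratio of 0.590 to 1.45 over all libraries. All 6 ascites libraries lay below 1 and all other libraries above 1. Col4a5 and Col4a6, whose starts lie 1342 bases apart on opposite strands of the X chromosome, had a ratio above 1 in every library and at most 2.99. These ratios depend on the annotated exon length of each gene, which is a constant factor over libraries.

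**Figure D5:**
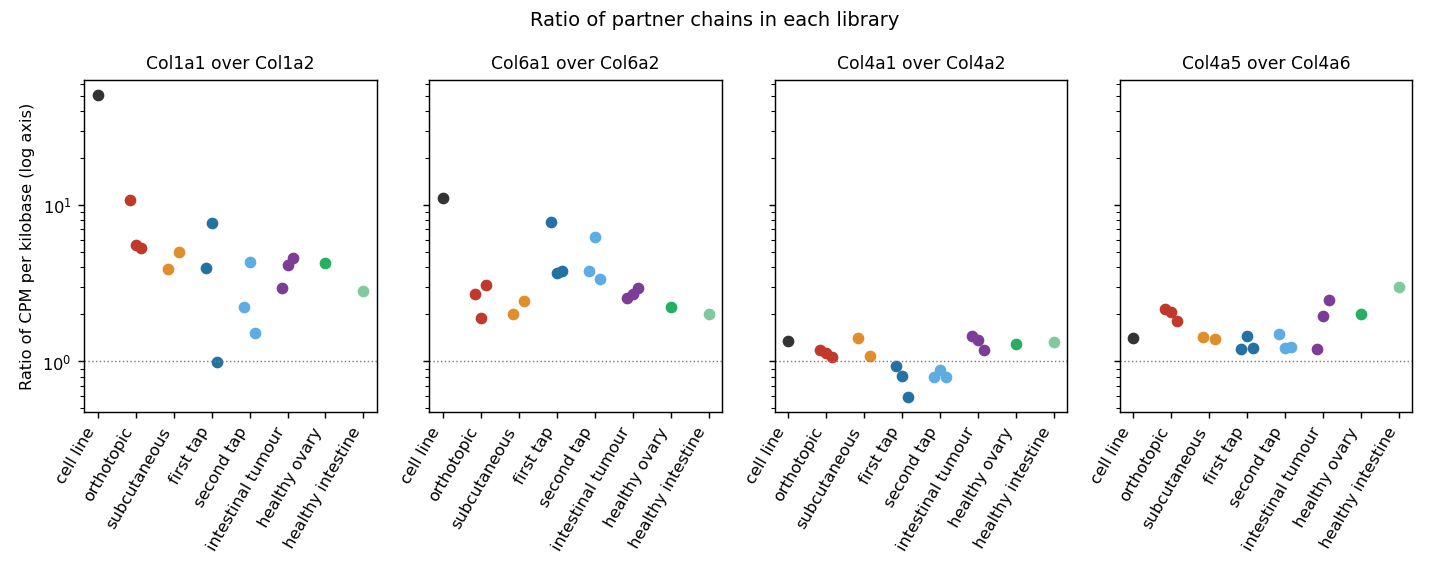
Each point is 1 library, with the ratio of CPM per kilobase between partner chains on a log axis and the 8 groups on the x axis; the dotted line marks 1. The cell line is highest for Col1a1 over Col1a2 (51.0) and Col6a1 over Col6a2 (11.1), and the 6 ascites libraries lie below 1 for Col4a1 over Col4a2.

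Genes that make, modify and bind collagen were read from 4 lists. Of 21 genes for hydroxylation, folding and export, 1 fell in the first tap against the orthotopic tumours, the prolyl 3-hydroxylase P3h3 (-2.87 ± 0.47, adjusted p = 0.0242), beside 0.891% of all tested genes lower and 0.688% higher. P3h3 also fell in the second tap (1 of 21, beside 0.578% of all genes) and in tumours on the intestine. The list's median in the first tap was -0.25, where all tested genes had 0.18, and P4ha1, a catalytic subunit of prolyl 4-hydroxylase, measured a mean of 109 CPM in the first tap and 101 CPM in the orthotopic tumours. On the intestine 5 of the 21 fell and 1 rose, beside 5.13% of all tested genes lower and 10.4% higher. The 1 rise is below the background share. P4ha1 (-2.61 ± 0.57), the prolyl 3-hydroxylases P3h1 (-2.23 ± 0.51) and P3h3 (-2.10 ± 0.46), the P3h1 partner Crtap (-1.66 ± 0.51), and Fkbp14, a folding enzyme (-2.26 ± 0.70), fell. Mia2, a collagen export gene, rose (10.01 ± 1.14).

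Of 13 genes for propeptide removal and crosslinking, edgeR called 0 in the first tap (1 higher and 3 lower at an unadjusted p under 0.05, 1 and 3 by DESeq2) and 0 in the second (1 and 3 unadjusted, 2 lower by DESeq2). Pcolce, the enhancer of procollagen C-proteinase, fell in tumours on the intestine (1 of 13, beside 5.13% of all genes), from a mean of 383 CPM in the orthotopic tumours to 38.8 CPM (-3.30 ± 0.77, adjusted p = 0.0155). That count of 1 is near the background. Of 12 fibril-binding genes 11 were tested, and 4 fell in the first tap, beside 0.891% of all tested genes: Lum (-6.53 ± 1.35), Prelp (-4.57 ± 0.55), Thbs2 (-4.57 ± 0.90) and Fbln1 (-4.61 ± 0.94). Lum, a small proteoglycan of fibrils, is also among the fibroblast markers. Prelp, Thbs2 and Fbln1 fell in the second tap as well (3 of 11, beside 0.578% of all genes) and rose in the orthotopic tumours against the line (3 of 11, beside 2.37%). The median of this list in the first tap was -1.58.

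Of 12 collagen receptor genes, 1 fell in the first tap, beside 0.891% of all tested genes: Mrc2, an endocytic collagen receptor, from a mean of 49.7 to 7.27 CPM (-2.77 ± 0.61, adjusted p = 0.0472). On the intestine Itga2, the alpha chain of an epithelial and platelet collagen integrin, rose (3.75 ± 0.52) and Adgrg1, an adhesion receptor that binds type III collagen, fell (-2.91 ± 0.79). These are 1 of 12 each way, beside 10.4% of all genes higher and 5.13% lower, shares near the background. Against the line, Itga1 and Lair1, an inhibitory receptor of leukocytes, rose in the orthotopic tumours, and Adgrg6 fell, from 109 to a mean of 11.3 CPM (-3.26 ± 0.64, adjusted p = 0.0231), which is 2 higher and 1 lower of 12 beside 2.37% and 0.834% of all genes. Lair1 had no count in the line and means of 11.6 CPM in the orthotopic tumours and 69.8 CPM in the first tap, where it passed as well (1 of 12, beside 3.11% of all genes). Itga2 fell in the orthotopic tumours against healthy ovary, 1 of 12 beside 0.591% of all genes (-3.84 ± 0.60, adjusted p = 0.0178).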

How the data were processed

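The analysis started from the raw count table that the authors deposited, with 1 column of counts per library and 43629 genes by symbol and Ensembl identifier. Per the labels' protocols, RNA was extracted with Trizol and libraries were made from total RNA with a modified NEBNext Ultra II directional kit. The submitters' processing notes name HISAT, HISAT2, featureCounts and DESeq2, and the builds hg19 and mm39, with no roles; the annotation and the strand setting of the counting are not given in the sources used here. 1 column matched no sample and was not used.

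Groups came from the labels. Genes over 0.5 CPM in at least 2 libraries were kept (22671 genes), scaled by TMM, and fitted over all 17 libraries with edgeR's robust quasi-likelihood model (edgeR 4.0.16, limma 3.58.1, R 4.3.3; 9 residual degrees of freedom), with Benjamini-Hochberg adjustment over all tested genes and calls at 0.05. Groups of 1 library were tested on the spread pooled over the replicated groups, so the single library is assumed to vary like the others. Folds against a group with no count are lower bounds, with that group set to 3 counts over the group, for counting error only. Levels per kilobase used the union of exons in GENCODE M21 (GRCm38). The test was also run on simulated counts with 1 fixed spread for all genes, which cannot show how it does at the spread of these libraries. Alternatives were DESeq2 1.42.0, scaling to the library total or by relative log expression, no filter, each library left out, the replicate number as a block, and, chosen after seeing the data, the 3 libraries with a count in over 32000 genes left out and the library-name prefix as a term. Within prefixes, differences are on the log2(CPM + 1) scale. They use the libraries that picked the chains, so a kept direction is no separate check.

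The members and gene lists were chosen with earlier results of these data known. Named chains are the most abundant of each type, up to 6 passing chains per comparison and direction by smallest p, and chains at 0 in 1 whole group and over 5 CPM in another, with up to 4 genes per list. Col5a3 and Col15a1 in the first tap, and Col2a1, Col4a3, Col4a4, Col11a1, Col11a2, Col24a1, P4ha1 in the first tap, Crtap and Mia2 where they go beyond this rule, were named after their values were seen.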

Additional observations from a re-analysis of the deposited data

How the results depend on the processing

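Over 30 named results (1 chain in 1 comparison each) and 318 settings, 200 kept their side of the threshold, 118 lost it and 0 changed direction. The settings reuse the libraries that picked these results, so a kept direction is no separate check. The count of called chains depended on the test and on single libraries, and the cause was not tested. In the order first tap, second tap and tumours on the intestine against orthotopic tumours (8, 2 and 5 called), DESeq2 called 19, 19 and 8, scaling to the library total alone 1, 0 and 5, and no filter on low counts 6, 4 and 3. Over all genes, in the same order, DESeq2 called 2571, 1930 and 5921. The library total alone called 83, 17 and 3088 of all genes, and no filter 316, 250 and 2630. Against the line, DESeq2 called 19 in orthotopic tumours (6 in edgeR, 3 with the library total), 24 in subcutaneous tumours (6, 5) and 13 in the first tap (2, 1). Over all genes DESeq2 called 3636, 5995 and 3636 in these comparisons. For orthotopic tumours against healthy ovary (1 called) DESeq2 gave 4, no filter 0 and the prefix term 0, and for subcutaneous against orthotopic tumours (0 called) DESeq2 gave 1. Over all genes DESeq2 called 743 against healthy ovary and 2274 between the primary sites. Leaving out each library in turn gave 0 to 9 for the first tap against orthotopic tumours, beside 18 to 793 of all genes. It gave 0 to 2 for the second tap (1 to 76 of all genes) and 1 to 5 for tumours on the intestine (1211 to 4085). It gave 0 to 1 for subcutaneous against orthotopic tumours, 2 to 6, 5 to 7 and 1 to 4 for orthotopic, subcutaneous and first tap against the line, and 0 to 0 for orthotopic tumours against healthy ovary.

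Of the alternatives chosen after seeing the data, leaving out the 3 libraries with a count in over 32000 genes gave 16, 6 and 9 for the first tap, second tap and tumours on the intestine against orthotopic tumours, 9 and 8 for orthotopic and subcutaneous tumours against the line, and 5 for the first tap against the line. The prefix as a term gave 14, 11 and 7 in the first 3 of these. Over all genes the prefix term called 668, 527 and 4181 in these 3 comparisons. Leaving out the 3 libraries called 1352, 321 and 4124 of all genes in them. Second against first tap, tumours on the intestine against healthy intestine, and the difference of both tumour-tissue contrasts stayed at 0 under each setting run. Scaling to the library total moved the median of all genes from 0.06 to -0.23 for tumours on the intestine against orthotopic tumours, from 0.24 to 0.38 for orthotopic and from 0.60 to 0.85 for subcutaneous tumours against the line.

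With the replicate number as a replicate block, the counts were 1 for the first tap, 0 for the second tap, 6 for tumours on the intestine and 0 for subcutaneous against orthotopic tumours, and 0 between the taps. In the same order, 29, 18, 3190, 8 and 0 of all genes were called. Deviations from the group means correlated at -0.549 to 0.419 over 26 same-numbered pairs and at -0.419 to 0.607 over 52 other pairs. The ranges overlapped. Deviations within a group cancel each other, so these values are not independent. They cannot show whether samples with the same number share an animal.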
